A study of Mus musculus with 12 samples.

Results

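In all 4 organs sequenced (WAT, BAT, liver and skeletal muscle), HFD-ncls libraries were compared with HFD-veh libraries, and genes were sought whose difference had the same direction in every organ. Of 22276 gene symbols, 7913 reached an FPKM of 1 in the HFD-veh or the HFD-ncls library of every organ, where FPKM is the number of sequenced fragments scaled to exon length and library size. Among these, 712 were higher in HFD-ncls in all 4 organs and 474 were lower in all 4, which gave 1186 genes with a shared direction. The change in an organ was the log2 ratio of HFD-ncls to HFD-veh after adding 0.1 FPKM, and every change below is on that scale.

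The mice were male C57BL/6J animals killed at 17 wk of age. HFD (high-fat diet) was fed from 8 wk of age, and narciclasine (ncls) at 1 mg/kg or its vehicle (veh), a cyclodextrin solution, was given weekly by oral gavage from 10 wk of age for 7 wk. The remaining group received normal chow diet with vehicle (NCD-veh). Each of the 12 combinations of organ and group was represented by 1 library, the number of mice behind a library is not given in the sources used here, and the 4 organs may have come from the same mice. A change in 1 organ therefore had no replicate check, and the only spread that could be measured was that of the change between organs.

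Narciclasine is an alkaloid of daffodil bulbs. In cultured cells it is known to bind the large ribosomal subunit and slow protein synthesis. The comparison asks which differences between HFD-ncls and HFD-veh were common to 4 organs with unlike cell types and metabolic roles.

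The organs carried the markers of their labels, and some libraries also carried markers of another organ. Adipocyte markers summed to between 19013 and 29207 FPKM in WAT, and brown adipocyte markers to between 8359 and 10232 FPKM in BAT against 51.0 to 104 FPKM in WAT. Liver marker genes summed to between 77475 and 88946 FPKM in liver, and fast-twitch muscle markers to between 117871 and 123570 FPKM in muscle. The liver markers summed to 722 FPKM in HFD-veh muscle and 15.9 FPKM in HFD-ncls muscle, and all 20 were lower in HFD-ncls muscle. The muscle markers summed to 1057 FPKM in HFD-veh BAT against 189 in HFD-ncls BAT, and to 82.1 FPKM in HFD-veh liver against 3.17 in HFD-ncls liver. In WAT, 18 of 20 liver markers were higher in HFD-ncls, and their sum was 1388 FPKM with HFD-veh and 1538 with HFD-ncls. In NCD-veh libraries the liver markers summed to 2687 FPKM in WAT and 25.3 in muscle. The muscle markers summed to 2602 FPKM in NCD-veh BAT and 2.20 in NCD-veh liver. The median marker gave a share of 0.581% liver in HFD-veh muscle, 0.647% muscle in HFD-veh BAT, 0.0596% muscle in HFD-veh liver and 0.145% liver in HFD-ncls WAT. Approximate depths were 18500000 to 26300000 fragments per library.

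Direction was shared somewhat more often than the organs' own shares of higher and lower genes would give. In HFD-ncls, 54.6% of the 7913 genes were higher in WAT, 47.1% in BAT, 54.6% in liver and 55.4% in muscle. The product of these shares gives 616 genes higher and 385 lower in all 4 organs, 1000.3 together. The 1186 genes counted (15% of those tested, 9% higher and 5.99% lower) were 1.19 times that number, with a ratio of 1.16 for higher and 1.23 for lower genes. The product treats the 4 organs as independent, and coexpressed genes are not separate observations, so the ratio is a description and carries no p-value.

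The balance between higher and lower genes depended on scaling. After each organ's changes were centred on their median, 594 genes were higher and 596 lower in all 4 organs, against 494 each from the product of shares. The median changes that were subtracted were 0.02 in WAT, −0.01 in BAT, 0.03 in liver and 0.03 in muscle. After the estimated RNA of other organs was subtracted, 796 genes were higher and 411 lower. The ratio to the product was 1.2 with centring and 1.18 with subtraction.

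**Figure D1:**
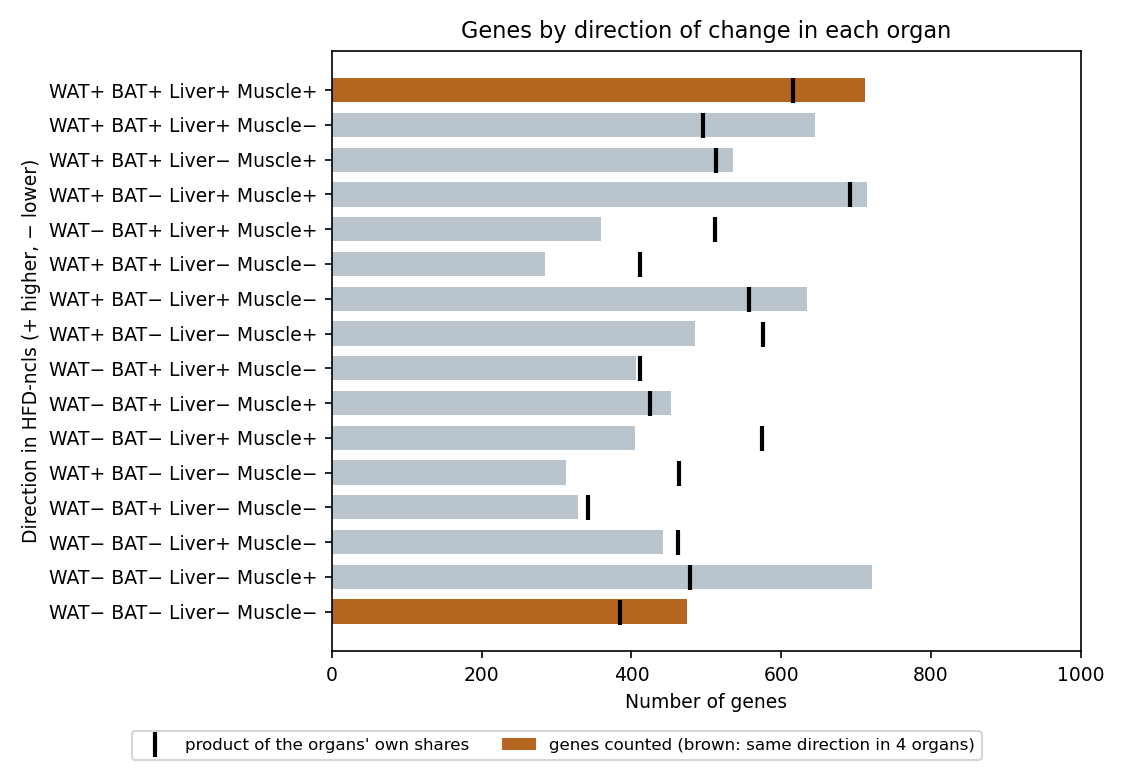
Number of genes (horizontal axis) for each of the 16 combinations of direction in WAT, BAT, liver and muscle (vertical axis, + higher and − lower in HFD-ncls). Bars are counts and black marks are the product of the organs' own shares. The brown bars, at 712 and 474 genes, lie to the right of their marks at 616 and 385, and the bar for genes higher in muscle and lower elsewhere (721 genes, mark at 478) departs further.

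Muscle departed most often from the direction of the other organs, and WAT least often. Among genes with 1 organ against the other 3, muscle was the odd organ in 1366 genes, where the product of shares gave 973. WAT was the odd organ in 672 genes, where 974 were given by the product. BAT (1042 genes, 1034 from the product) and liver (978 and 975) were close to the product. Across the 3 organs other than muscle, the number with a shared direction was 1.29 times the product, and across the 3 organs other than WAT it was 0.941 times.

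Across genes, the change in WAT was most like that in liver, with a Pearson r of 0.23 over 7913 genes. The r was 0.04 between WAT and BAT, 0.10 between BAT and liver, 0.02 between BAT and muscle, −0.10 between liver and muscle and −0.11 between WAT and muscle. Without 119 liver-enriched or muscle-enriched genes, the r between WAT and muscle was 0.05, while that between liver and muscle was −0.14, that between WAT and liver 0.26, that between BAT and liver 0.02 and that between WAT and BAT 0.05. Spearman's rho over all 7913 genes was 0.09 between WAT and BAT, 0.04 between BAT and liver and 0.03 between WAT and muscle. These r run over genes, which are not independent, and the 4 comparisons had no library in common.

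Most shared changes were small. Among the 712 higher genes, the median of the smallest change over the 4 organs was 0.05, and 336 had a smallest change under 0.05. Among the 474 lower genes the median size was 0.04, and 260 were under 0.05. At the edge of the definition, Esf1 had a change of 2.16e-05 in liver and counted as a member, whereas Gm2a had a change of −2.27e-05 in muscle, was higher in the other 3 organs and did not count. The lowest of a gene's organ maxima was 1.0003 FPKM for Ndufaf5, just inside the FPKM limit, and 0.9996 FPKM for Llgl2, just outside it.

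When at least 1.2-fold was required in every organ, 11 genes were higher (0.139%) and 7 were lower (0.0885%), 18 in all (0.227%), where the product of the organs' shares gave 3.52. With the genes divided by mean FPKM into 4 bins of equal size, the counts were 4, 6, 6 and 2 from the lowest to the highest bin, and the products were 2.90, 1.11, 0.568 and 0.175. No gene (0%) was at least 1.4-fold or at least 2-fold different in the same direction in all 4 organs. For NCD-veh against HFD-veh, which uses the same HFD-veh libraries, 68 of 7911 genes were at least 1.2-fold different in 1 direction in every organ, where the product gave 19.4. The ratio to the product at 1.2-fold was 3.51 there and 5.11 for HFD-ncls against HFD-veh. Of the 68, 12 were at least 1.4-fold, where the product gave 0.370, and 1 at least 2-fold. At 1.4-fold the product for HFD-ncls against HFD-veh was 0.0121, with 0 genes counted. The order of the ratios thus depended on the fold and does not rank the 2 comparisons. Markers of other organs also differed between NCD-veh and HFD-veh libraries, and their part in the 68 was not tested.

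The change common to the 4 organs was also tested gene by gene with limma, with organ as a block and Benjamini-Hochberg adjustment over 7913 genes. The spread in this test is that of the change between organs, so it asks whether a change was alike in these organs and not whether it would recur in other mice. No gene passed an adjusted p of 0.05 (0%), and the smallest adjusted p was 0.817. At an unadjusted p under 0.05 there were 461 genes (5.83%), of which 294 (3.72%) were higher and 167 (2.11%) lower. Of these, 256 higher and 140 lower genes had the same direction in all 4 organs. Alternative limma fits also passed 0 genes, with the smallest adjusted p between 0.177 and 0.9999. All genes named below as higher or lower are therefore described by their values, not called changed.

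The higher genes had lower expression than the lower genes. Their median FPKM was 6.99 against 15.5, with 9.60 over all genes tested. The product of shares within 4 bins of mean FPKM had the same trend. From the lowest to the highest bin it gave 188, 188, 136 and 98 higher genes, where 220, 218, 163 and 111 were counted, and 65.3, 72.3, 107 and 134 lower genes, where 67, 88, 152 and 167 were counted. The median length of the longest annotated transcript was 3038 bases for the higher, 2882 for the lower and 2959 for all genes.

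The lower genes were led by Hes1, Acta2 and Anxa2, when genes were ordered by the smallest of their 4 changes. Hes1 encodes a transcriptional repressor that is the classic target of Notch signalling. Its FPKM was 5.81 with veh and 3.25 with ncls in WAT, 8.75 and 6.32 in BAT, 4.51 and 3.20 in liver, and 6.57 and 3.54 in muscle. Every HFD-ncls library was below the HFD-veh library of its organ, while the ranges across organs overlapped, with HFD-ncls BAT above HFD-veh WAT and liver. The changes were −0.82, −0.46, −0.48 and −0.87, with a mean of −0.66 ± 0.22 (SD over 4 organs, limma SE 0.109, adjusted p = 0.817). NCD-veh levels were 5.27, 4.86, 9.30 and 4.51 FPKM in the same order of organs, so in liver NCD-veh was the highest of the 3 groups. Hes1 lies at chr16:30064470-30067882 in mm9. In bulk tissue, fewer cells of a type and less RNA per cell cannot be told apart.

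Of the Notch receptors, ligands and targets, a list of 14 genes chosen after Hes1 was seen, only 2 passed the FPKM limit, and Hes1 was the one with a shared direction. Of these 2 genes, 1 was higher and 1 lower in WAT and in muscle, and 2 were lower in BAT and in liver. Their median changes, which include Hes1, were −0.36 in WAT, −0.28 in BAT, −0.25 in liver and −0.35 in muscle. The data thus describe Hes1 and not the pathway.

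Acta2, at chr19:34315580-34329826 in mm9, encodes smooth muscle alpha-actin, found in vessel walls and activated fibroblasts. Its FPKM was 155 with veh and 114 with ncls in WAT, 21.1 and 12.8 in BAT, 1.83 and 1.23 in liver, and 7.22 and 5.45 in muscle. The changes were −0.44, −0.71, −0.54 and −0.40, and the mean of −0.52 ± 0.14 (SD over 4 organs, limma SE 0.084) had the smallest unadjusted limma p, 0.000419, with an adjusted p of 0.817. NCD-veh levels were 44.1, 13.5, 0.742 and 4.29 FPKM, below HFD-veh in each organ, and only in BAT was HFD-ncls below NCD-veh.

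Other smooth muscle and vessel wall genes, a list chosen after Acta2 was seen, did not share its direction in every organ. The median change of the 8 that were tested was 0.22 in WAT, −0.59 in BAT, −0.34 in liver and −0.14 in muscle. Cald1, which encodes caldesmon of the contractile apparatus, was the other of the 2 members lower in all 4 organs, with changes of −0.22, −0.49, −0.23 and −0.13. These 2 members made up 25% of the 8, where 15% of all genes had a shared direction. Acta2 was the reason for the list, so its membership was fixed in advance and the 2 shares cannot be compared. The part of smooth muscle cell content in the Acta2 values was not tested.

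The 250 bases before the RefSeq start of Acta2 are shown because this gene had the smallest limma p (GRCm38.p6, chr19:34255374-34255623, minus strand). Those of Gm129, the RefSeq gene Ciart (chr3:95882229-95882478, minus strand), are shown because it leads the higher clock genes described below. Capitals mark CACGTG on either strand, the E-box bound by clock and other helix-loop-helix factors. Across 32851 promoter windows, 6.02% held CACGTG, and among the genes tested here that had a matched promoter, 9.26% did. Both genes were chosen after their values were seen.
Acta2: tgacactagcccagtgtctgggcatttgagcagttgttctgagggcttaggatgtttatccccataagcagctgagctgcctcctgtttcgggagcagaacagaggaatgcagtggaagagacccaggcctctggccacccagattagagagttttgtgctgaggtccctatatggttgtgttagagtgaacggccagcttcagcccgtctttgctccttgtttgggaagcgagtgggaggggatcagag
Gm129: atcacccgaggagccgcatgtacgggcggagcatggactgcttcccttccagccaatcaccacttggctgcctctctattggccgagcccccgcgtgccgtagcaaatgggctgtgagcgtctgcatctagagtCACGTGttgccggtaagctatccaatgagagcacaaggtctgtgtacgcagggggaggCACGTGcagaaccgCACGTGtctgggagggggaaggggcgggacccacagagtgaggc

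In Gm129 the window held 3 copies of CACGTG, which began 116, 58 and 44 bases before the start. A match is a description of the letters and does not show binding.

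Anxa2 and Tnfrsf12a were lower in all 4 organs at quite different levels. Anxa2 encodes annexin A2, which binds membranes in the presence of calcium, and its FPKM in HFD-veh and HFD-ncls was 1023 and 829 in WAT, 98.6 and 58.7 in BAT, 7.23 and 5.78 in liver, and 13.1 and 10.6 in muscle. Its changes were −0.30 in WAT, −0.32 in liver and −0.31 in muscle, with −0.75 in BAT standing apart. Tnfrsf12a, at chr17:23812414-23814416 in mm9, encodes the receptor for the cytokine TWEAK. It had 22.9 and 14.7 FPKM in WAT, 8.85 and 4.64 in BAT, 5.04 and 4.18 in liver, and 10.7 and 6.6 in muscle. Its mean change was −0.63 ± 0.27 (SD over 4 organs), and the smallest change, −0.26 in liver, was within the counting error estimated from the approximate depth.

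**Figure D2:**
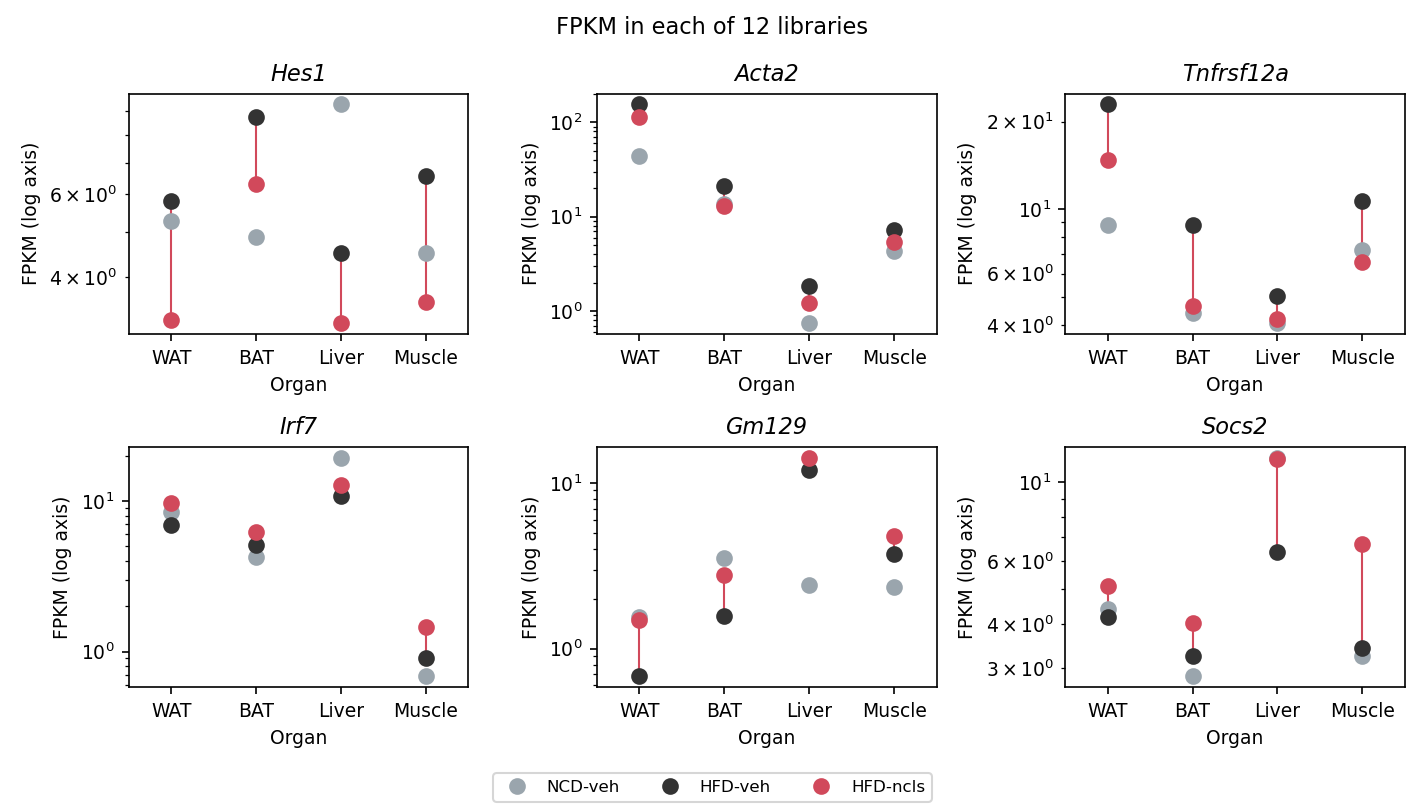
FPKM (vertical axes, log scale) of 6 genes in WAT, BAT, liver and muscle (horizontal axes), with 1 point per library (grey NCD-veh, black HFD-veh, red HFD-ncls) and a line joining both HFD groups. Hes1, Acta2 and Tnfrsf12a are lower and Irf7, Gm129 and Socs2 higher in HFD-ncls in each organ. NCD-veh is below HFD-veh in every organ for Acta2 and Tnfrsf12a. For Hes1, Irf7, Gm129 and Socs2, NCD-veh lies on different sides of HFD-veh from organ to organ.

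Tank and Mrps22 had changes of similar size in all 4 organs. Tank encodes an adaptor of innate immune and NF-kappaB signalling, and its changes were −0.45 in WAT, −0.31 in BAT, −0.35 in liver and −0.28 in muscle. Its FPKM ranged from 5.49 to 43.6 over the HFD-veh libraries and from 4.41 to 32.0 over the HFD-ncls libraries. Mrps22 encodes a protein of the small mitochondrial ribosomal subunit, and its changes lay between −0.29 and −0.27 in all 4 organs (mean −0.28 ± 0.01, SD over 4 organs). That evenness is of 1 gene among many, and the limma SE of Mrps22, which borrows from all genes, was 0.073.

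Scd2, Hsd17b12 and Aldh1a7 had their smallest changes in WAT and their largest in muscle. Scd2, a stearoyl-CoA desaturase, had 231 FPKM with veh and 197 with ncls in WAT, 8.14 and 5.0 in BAT, 10.3 and 7.42 in liver, and 3.61 and 1.94 in muscle. Its changes were −0.23, −0.69, −0.47 and −0.86. Hsd17b12, the ketoacyl reductase of fatty acid elongation, changed by −0.23, −0.33, −0.29 and −0.87 in the same order. Aldh1a7, a cytosolic aldehyde dehydrogenase, changed by −0.21, −0.49, −0.52 and −0.93.

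Aldh1a7 and Hsd17b12 are abundant in liver, and the liver markers in HFD-veh muscle moved with their muscle values. Aldh1a7 had 2.19 FPKM with veh and 1.10 with ncls in muscle, and the estimated liver share would add 0.584 FPKM to the former. After subtraction of that share, its change in muscle was −0.50 in place of −0.93, and that of Hsd17b12 was −0.65 in place of −0.87. These were the only 2 of the 30 leading genes with any organ's change moved by over 0.1. The muscle change of Scd2 was −0.84 after subtraction.

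Gbe1, the glycogen branching enzyme, had its smallest change in WAT (−0.20) and its largest in liver (−0.37), where its FPKM was 49.96 with veh and 38.5 with ncls. Ltc4s, which makes leukotriene C4 in myeloid cells, had changes of −0.25 in WAT, −0.43 in BAT, −0.64 in liver and −0.50 in muscle. The liver value of Ltc4s rests on about 11.9 fragments in HFD-ncls, and 26.1% of its annotated exonic bases are shared with a noncoding gene on the other strand. The changes of Ltc4s in liver and muscle were within counting error. The remaining leading lower genes were 1110019D14Rik, a long noncoding RNA, Thap6, a zinc finger gene, Ndufaf5, a complex I assembly factor, and Tyw5, an enzyme of transfer RNA modification. Their smallest changes were −0.29, −0.25, −0.20 and −0.19. All 4 changes of 1110019D14Rik were within counting error, as were those of Thap6 in WAT, liver and muscle.

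**Figure D3:**
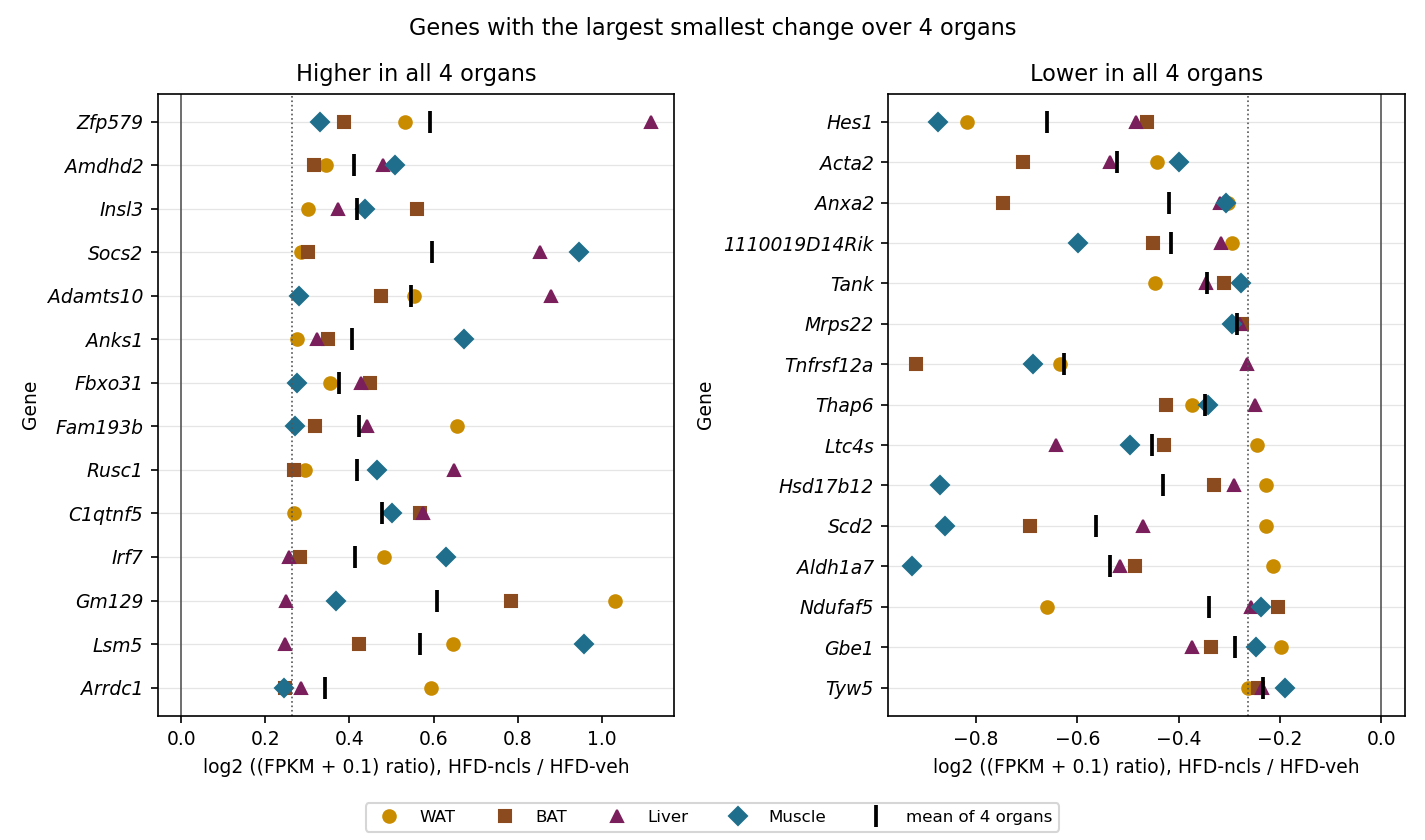
Change in each organ (horizontal axes, log2 ratio of FPKM + 0.1, HFD-ncls to HFD-veh) for 14 higher and 15 lower genes with the largest smallest change (vertical axes). Symbols are organs, black marks are the mean of 4 organs, solid lines mark 0 and dotted lines 1.2-fold. In Anxa2 and Ndufaf5 a single organ lies away from the other 3, whereas the 4 symbols of Mrps22 and Tyw5 nearly coincide.

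The higher genes were led by Zfp579, Amdhd2 and Insl3. Zfp579, a zinc finger gene, had 4.54 FPKM with veh and 6.61 with ncls in WAT, 3.89 and 5.12 in BAT, 1.61 and 3.60 in liver, and 3.76 and 4.75 in muscle, and its largest change was 1.12 in liver. Amdhd2, which removes the acetyl group from N-acetylglucosamine 6-phosphate in amino sugar breakdown, had changes of 0.34 in WAT, 0.32 in BAT, 0.48 in liver and 0.51 in muscle. The mean change of Amdhd2 was 0.41 ± 0.10 (SD over 4 organs, limma SE 0.084). Insl3, an insulin-like peptide hormone, was highest in BAT, at 16.9 FPKM with veh and 24.95 with ncls. Its changes in WAT, liver and muscle were within counting error.

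Reads of Insl3 and C1qtnf5 cannot be fully told apart from those of neighbours. Of the annotated exonic bases of Insl3, 64.8% are shared with Jak3 on the same strand, and Jak3 changed by 0.01 in WAT, −0.12 in BAT, 0.56 in liver and −0.17 in muscle. All exonic bases of C1qtnf5 (100%), which encodes a secreted C1q-related protein, are shared with Mfrp, whose FPKM was at most 0.0433. C1qtnf5 itself changed by 0.27, 0.57, 0.58 and 0.50, with 3 of 4 organs within counting error. Of the 28 leading genes found in the mm9 annotation, 8 shared exonic bases with another gene.

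Socs2, a feedback inhibitor of growth hormone and cytokine receptors, had 4.17 FPKM with veh and 5.10 with ncls in WAT, 3.25 and 4.04 in BAT, 6.38 and 11.6 in liver, and 3.43 and 6.69 in muscle. Its changes were 0.28, 0.30, 0.85 and 0.95, so both adipose depots had smaller changes than liver and muscle.

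Macrophage genes had no direction shared by the 4 organs. Of 12 tested, 11 were higher in HFD-ncls in muscle and 11 in WAT, but 0 in BAT and 2 in liver, and none had the same direction throughout. In BAT, Cd68 changed by −1.78 and Lgals3, which encodes galectin 3, by −2.91.

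Other higher genes had diverse roles. Fbxo31, a substrate receptor of a ubiquitin ligase, had 4.99 and 6.40 FPKM in WAT, 30.6 and 41.7 in BAT, 12.2 and 16.5 in liver, and 31.4 and 38.1 in muscle, with a mean change of 0.38 ± 0.08 (SD over 4 organs). Adamts10, a secreted metalloprotease of the matrix, changed by 0.55, 0.48, 0.88 and 0.28, and Anks1, an adaptor of Eph receptors, by 0.28, 0.35, 0.32 and 0.67. Lsm5, a subunit of the ring that binds U6 small nuclear RNA, changed by 0.65, 0.42, 0.25 and 0.96 but rested on about 13.9 fragments in HFD-veh muscle. Fam193b, Rusc1 and the arrestin-domain gene Arrdc1 had smallest changes of 0.27, 0.27 and 0.25. For Lsm5 and for Arrdc1, the change in 3 organs was within counting error, as was the muscle change of Adamts10.

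Counting error limited many of these values. Of the 28 leading genes with an annotated length, 17 had fewer than 100 approximate fragments in their shallowest library, and the median of that lowest number was 87.5. For 9 of 28 the change in at least 1 organ was within the interval that counting error alone would give. Genes with a larger mean change could be driven by 1 or 2 organs. Pvalb, itself a member of the fast-twitch muscle marker list, changed by −6.31 in liver and −2.34 in BAT but by −0.02 in WAT and −0.16 in muscle. The muscle marker sums, which include Pvalb, also differed between the HFD libraries of liver and of BAT.

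Interferon-stimulated genes had the largest share of members with a shared direction among the lists with over 5 genes tested. Of 14 tested, 5 were higher and 0 lower in all 4 organs, or 35.7%, where 15% of all genes shared a direction, and 0 passed the adjusted limma threshold. Irf7, the transcription factor that drives type I interferon genes, had 6.93 FPKM with veh and 9.72 with ncls in WAT, 5.08 and 6.20 in BAT, 10.7 and 12.8 in liver, and 0.910 and 1.46 in muscle. Its mean change was 0.41 ± 0.18 (SD over 4 organs). Irf7 lies at chr7:148448605-148452380 in mm9.

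The smallest changes of the other 4 were below that of Irf7, which was 0.26 in liver. Psmb8, an immunoproteasome subunit, had 25.5 and 30.2 FPKM in WAT, 13.0 and 15.5 in BAT, 16.2 and 21.4 in liver, and 1.89 and 2.20 in muscle, with changes from 0.21 to 0.40. Isg15, a ubiquitin-like modifier, changed by 0.52, 0.27, 0.02 and 0.34. Bst2, which tethers budding virus, and Gbp2, a guanylate-binding protein, had smallest changes of 0.07 and 0.03. The median change of the list was 0.14 in WAT, 0.26 in BAT, 0.09 in liver and 0.10 in muscle.

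MHC class II genes, which present antigen to helper T cells, were close to this pattern. Of 5 tested, 3 were higher in all 4 organs and 0 lower, or 60% against 15% of all genes. The 3 were H2-Aa, H2-Ab1 and Cd74, and their smallest changes were 0.06, 0.10 and 0.03. H2-Ab1 had 338 and 373 FPKM in WAT, 29.8 and 31.9 in BAT, 13.7 and 15.9 in liver, and 7.58 and 9.36 in muscle. The largest changes were 0.34 for H2-Aa and 0.30 for H2-Ab1, both in muscle, and 0.57 for Cd74 in liver.

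Lymphocyte markers were mostly higher in WAT, as were the interferon and MHC class II genes. In BAT, 3 of 5 MHC class II genes were higher and 2 lower (median change 0.03). No lymphocyte marker of 16 passed the FPKM limit in all organs. Without that limit, 13 of 16 were higher in HFD-ncls in WAT (median change 0.86) and 12 of 16 in BAT (0.31). Their sum was 11.7 FPKM with veh and 26.6 with ncls in WAT, and 2.94 and 4.01 in BAT. In BAT all 16 were under 1 FPKM in both HFD groups. In liver 7 of 16 were higher (median −0.23, sum 3.81 and 4.04 FPKM) and in muscle 6 of 16 (median −0.08, sum 1.83 and 1.25 FPKM). Cd3d was at 0 in HFD-veh liver and HFD-veh muscle. The part of lymphocyte content in the interferon and MHC class II values was not tested.

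Clock genes differed between organs in spite of a leading member. Gm129, which encodes the circadian repressor CIART and lies at chr3:95682426-95686174 in mm9, had 0.681 FPKM with veh and 1.5 with ncls in WAT, 1.57 and 2.77 in BAT, 11.9 and 14.2 in liver, and 3.71 and 4.81 in muscle. Its changes of 1.03, 0.78, 0.25 and 0.37 had a mean of 0.61 ± 0.36 (SD over 4 organs). Of 18 tested clock genes, 2 were higher in all 4 organs, Gm129 among them, and 0 were lower, or 11.1% against 15% of all genes. Arntl, the central activator, changed by −0.56 in WAT and 1.54 in liver. The hour at which the mice were killed was not analysed here.

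Of 24 ribosome biogenesis factors tested, 5 were higher in all 4 organs and 0 lower, or 20.8%, against 15% of all genes. The list had 8 members higher and 16 lower in WAT, but 18 higher in BAT, 18 in liver and 20 in muscle. The 5 were Nop56, Nop58, Nop2, Polr1b and Wdr43. Polr1b, a subunit of RNA polymerase I, had the most even values, with changes of 0.23, 0.28, 0.36 and 0.47, whereas the smallest changes of the other 4 were between 0.01 and 0.05. Of 77 cytosolic ribosomal proteins, 67 were higher in WAT, 52 in BAT and 71 in liver, but 12 in muscle, and 7 were higher and 1 lower in all 4 organs, or 10.4%. Of 29 translation factors, 2 were higher and 4 lower in all 4 organs, or 20.7%, and the latter included Eif4e, the cap-binding protein, with changes of −0.21 in WAT and −0.12 in BAT.

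The 4 stress-response lists had between 10.0% and 25% of their members in a shared direction, against 15% of all genes. Of 20 heat shock proteins, 2 were lower in all 4 organs, Hsp90aa1 and Dnajb4, or 10.0%. Of 18 genes of the unfolded protein and integrated stress responses, 1 was higher and 2 lower, or 16.7%, the latter including the chaperone gene Hspa5 with changes of −0.05, −0.12, −0.12 and −0.27. Of 17 NRF2 antioxidant genes, 3 were lower, Gstm1, G6pdx and Ephx1, or 17.6%. Of 8 p53 targets, 2 were lower, or 25%, and Ccng1 among them changed by −0.37, −0.32, −0.43 and −0.06.

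Energy metabolism genes were mostly split between organs. Of 26 fatty acid oxidation genes, 5 were higher in WAT and 4 in liver but 21 in muscle, with medians of −0.12, −0.14 and 0.25, and 15 were higher in BAT (median 0.04). Even so, Cpt1a, which admits fatty acids to mitochondria, the peroxisomal enzyme gene Ehhadh and the lipid droplet coat gene Plin2 were lower in all 4 organs, or 11.5%. Plin2 had 318 and 299 FPKM in WAT, 197 and 146 in BAT, 228 and 176 in liver, and 13.8 and 12.5 in muscle. Cpt1a changed by −0.21, −0.24, −0.27 and −0.05, so in muscle it did not have the direction of most of its list. HFD-veh muscle carried liver markers, at an estimated liver share of 0.581%, and Plin2 had 228 FPKM in HFD-veh liver. The muscle changes of Cpt1a, Ehhadh and Plin2, and with them the 11.5%, are given before subtraction of that share. The part of liver RNA in these muscle values was not tested.

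Of 59 respiratory chain genes, 2 were higher and 1 lower in all 4 organs, or 5.08%, and the list was higher in BAT for 46 genes but in WAT for 16. Of 22 genes of AMPK and insulin signalling, 1 was higher, Akt2, and 2 were lower, Rps6kb1 among them, or 13.6%. Of 20 genes of fatty acid and triglyceride synthesis, Lpin1 was higher and Scd2 and Elovl5 were lower in all 4 organs, or 15%, the same as the share of all genes. Of 16 genes of cholesterol synthesis and uptake, 2 were higher, Pmvk and Fdft1, and 0 lower, or 12.5%. Of 18 glucocorticoid-responsive and fasting-responsive genes, 2 were higher, Klf9 and Lpin1, and 0 lower, or 11.1%. Klf9 changed by 0.45 in WAT, 0.19 in BAT, 0.28 in liver and 0.12 in muscle.

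**Figure D4:**
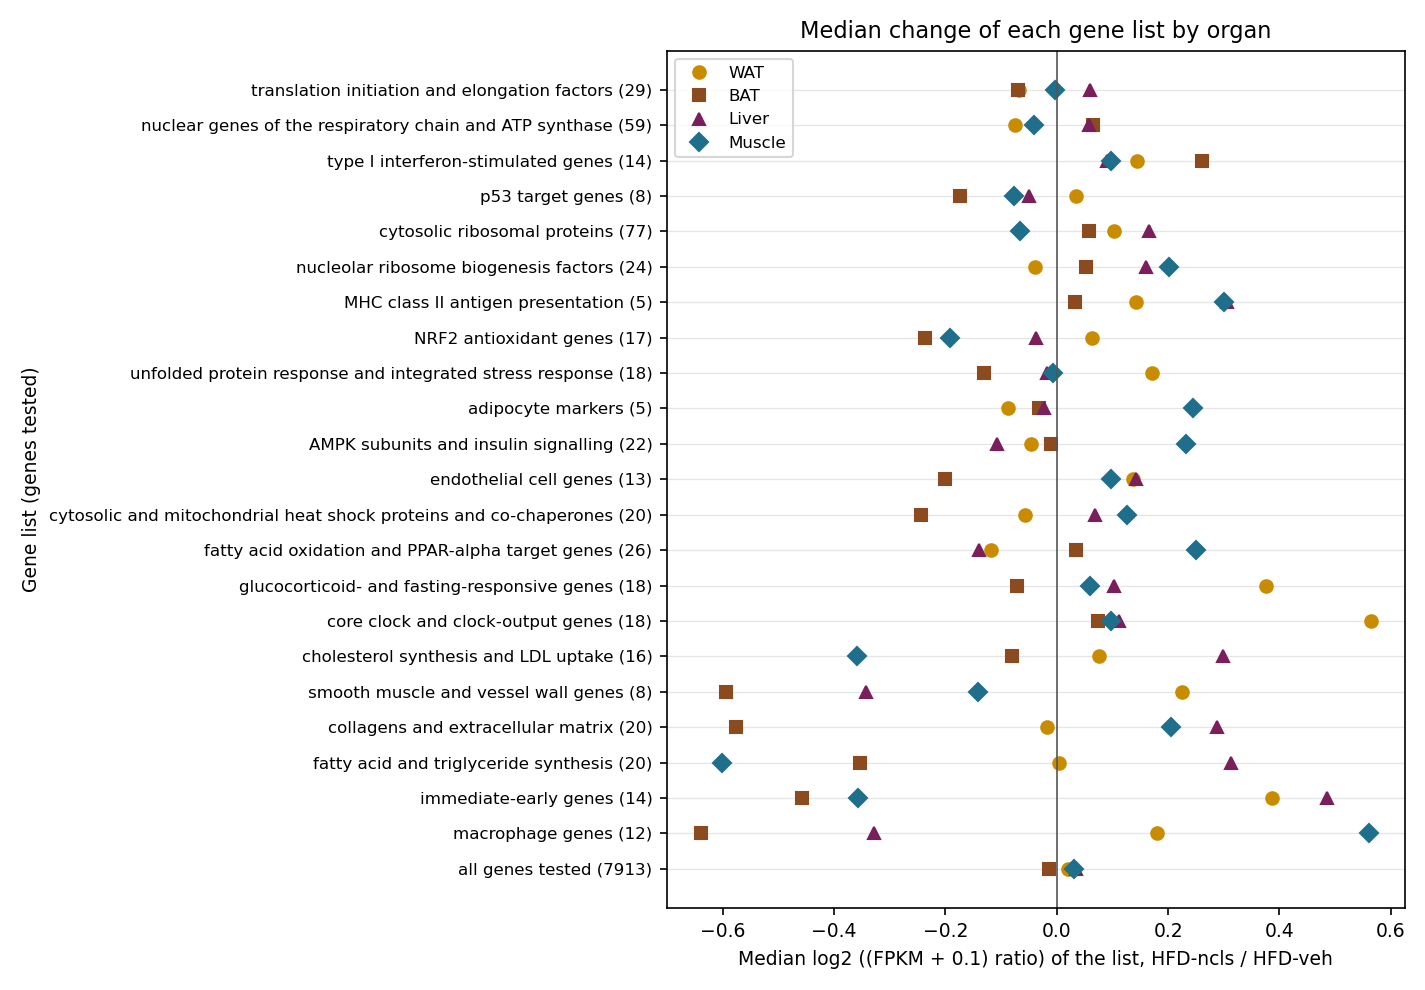
Median change (horizontal axis, log2 ratio of FPKM + 0.1, HFD-ncls to HFD-veh) of lists with at least 5 genes tested (vertical axis, number of genes in parentheses) in WAT, BAT, liver and muscle. Lists are ordered by the distance between their lowest and highest organ, which is widest for macrophage genes (−0.64 in BAT, 0.56 in muscle), and the last line gives all 7913 genes.

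The widest differences were in lists whose members moved in opposite directions in different organs. The median change of immediate-early genes was 0.39 in WAT and 0.49 in liver but −0.46 in BAT and −0.36 in muscle, and 0 of 14 shared a direction in all 4 organs. Fos changed by 0.82, −0.59, −0.10 and −1.12 in WAT, BAT, liver and muscle. Genes of collagens and extracellular matrix had a median of −0.58 in BAT, 0.29 in liver, 0.21 in muscle and −0.02 in WAT. Col1a1, the main fibrillar collagen, changed by 0.22, −0.68, 1.18 and 1.15 in the 4 organs. The matrix protease gene Mmp2 was the 1 member of 20 that was higher throughout, by 0.28, 0.20, 0.37 and 0.44, and Postn the 1 that was lower. Together they made up 10% of this list, against 15% of all genes with a shared direction.

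Markers of other cell types gave few shared directions. Of 13 endothelial genes, Tie1 was higher in all 4 organs and 0 were lower, or 7.69% against 15% of all genes. Of 4 proliferation genes that passed the FPKM limit, Mcm7 was higher, or 25%. Of 5 adipocyte, 3 red blood cell and 1 brown adipocyte gene tested, 0 shared a direction. Liver markers had 4 members tested and 0 with a shared direction, and the 4 muscle markers tested held Pvalb. Of the 119 liver-enriched or muscle-enriched genes among those tested, 2 were higher and 6 lower in all 4 organs. Of all genes tested, 9% were higher and 5.99% lower.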

How the data were processed

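RNA of 12 libraries (4 organs, 3 groups, 1 library each) was sequenced by the authors, aligned to mm9 with TopHat and quantified for RefSeq genes with Cufflinks, and FPKM values were deposited, with no further scaling stated. No other per-sample columns were left unused (0), and 84 symbols without a value in at least 1 of 8 libraries were dropped. Changes were log2((FPKM + 0.1) ratio). Expected counts are products of the organs' shares. limma 3.58.1 in R 4.3.3 fitted treatment with organ as a block (eBayes with trend, 3 residual degrees of freedom) and was tested on simulated data. Python 3.11.15 with pandas 2.3.3 and numpy 2.4.6 did the rest. Depth was estimated from steps in low FPKM values and GENCODE transcript lengths in mm9, and counting errors from it cover counting only. The named genes were the 15 higher and 15 lower genes with the largest smallest change, list members with a shared direction and genes at the limits. Arntl, Cd68, Col1a1, Fos, Lgals3, Pvalb and further list members under 1.2-fold were named after their values were seen. Members and lists were chosen with earlier results of these data known. Promoters are RefSeq sequences (GRCm38.p6), matched for 24 of 30 leading genes. Other organs' RNA was estimated as the median over markers of the difference between arms divided by the source library. The NCD-veh libraries entered no limma fit and were used for levels, for the count against HFD-veh and for defining organ-enriched genes. A few named genes and 1 list are not reported here.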

Additional observations from a re-analysis of the deposited data

Results flagged for a closer look

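In 4 of 29 leading genes examined, 1 organ stood apart from the other 3 by Dixon's ratio of the gap to the range. The genes had been selected on these same changes, so the rate of about 1 in 20 that chance gives in unselected groups does not apply. The ratio was 0.889 for Arrdc1 (WAT), 0.967 for Anxa2 (BAT), 0.84 for Hsd17b12 (muscle) and 0.881 for Ndufaf5 (WAT).

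In 5 gene lists the median change was at least 1.2-fold higher in 1 organ and at least 1.2-fold lower in another, and the differences were not tested. Liver minus BAT was 0.94 for immediate-early genes and 0.86 for collagens and extracellular matrix. Liver minus muscle was 0.91 for fatty acid and triglyceride synthesis and 0.66 for cholesterol synthesis and LDL uptake. Muscle minus BAT was 1.2 for macrophage genes. The muscle libraries in these differences include HFD-veh muscle, which carried liver markers, and the BAT libraries include HFD-veh BAT, which carried muscle markers. The part of these markers' source in these differences was not tested.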

How the results depend on the processing

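With an FPKM of at least 5, 272 genes were higher and 257 lower in all 4 organs, and 6 were at least 1.2-fold different. With no filter on FPKM, 1319 were higher and 756 lower, 2.20 times the product of shares, with 99 at least 1.2-fold and 14 at least 1.4-fold different. Without the filter, 5235 to 6549 symbols were at 0 FPKM in each HFD library. A symbol at 0 in both libraries of an organ has no direction there and lowers the product. The 2.20 is therefore not comparable with the 1.19 of the filtered genes. With a pseudocount of 1, 8 genes were at least 1.2-fold different. When each organ was left out, 1072 to 1426 genes were higher and 786 to 1195 lower in the other 3, which is 0.941 (without WAT) to 1.29 (without muscle) times the product. The same step gave 54 (without liver) to 80 (without BAT and without muscle) genes at least 1.2-fold and 1 (without liver and without muscle) to 5 (without WAT) at least 1.4-fold different. Fewer organs have to agree there, so higher counts follow from the construction. The r between WAT and muscle was 0.0463 without liver-enriched and muscle-enriched genes, and Spearman's rho was 0.0296. The remaining alternatives stayed within 1.5 times of the count, and limma passed 0 genes in each fit. Other pseudocounts, filters and omitted organs could not reverse a gene's direction. The medians subtracted in centring were smaller than the smallest change of any leading gene. Only subtraction of other organs' RNA could reverse one, and under it all 30 leading genes kept their direction. Subtraction of other organs' RNA was chosen after seeing the data. The cause of these differences was otherwise not tested.

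The limma fit paired both HFD groups within organs, and no further block by replicate number was fitted, as each organ and group had 1 library. With 1 library per organ and group, differences between mice, between dissections and between treatments cannot be told apart, and depth limits genes with fewer than 100 fragments in a library.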
